A study of Mus musculus with 8 samples.

Results

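AY036118, Lars2, Cmss1 and Filip1l are 4 mouse genes that hold short runs of cytosines read far more often than the rest of the nuclear genome. They were chosen by their read counts, and the day contrast of these libraries was also known at that point. Every deposited site within a gene or 1000 bp on either side of it was taken as a member. Filip1l lies inside Cmss1 on the other strand, so the 4 genes form 3 loci. Over the 8 libraries they held 1002 of the 5365124 cytosine positions read in any library, and 183 of the 1002 had over 20 reads in at least 1 library (called deep here). A further 5673 nuclear positions outside the members were deep in at least 1 library.

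NOMe-seq had been run on mouse embryonic fibroblasts (MEFs), primary connective tissue cells, to follow DNA accessibility while Etv2 reprograms them. M.CviPI, a bacterial methyltransferase, adds a methyl group to cytosines that follow a guanine (GpC) where DNA is open, and bisulfite sequencing reads that mark. The groups were day 1 of Etv2 reprogramming with M.CviPI (treated), day 0 control MEFs with M.CviPI, day 1 without the enzyme (untreated) and day 0 without it, with 2 libraries each. All 8 came from bulk genomic DNA, so a level is an average over cells. Neither the delivery of Etv2 nor the origin of the 2 replicates (1 culture or separate ones) is stated in the labels, so p-values measure only the spread between these libraries.

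Etv2 is an ETS-family transcription factor that directs mesoderm to blood and endothelial fates. Ribosomal RNA (rRNA) genes are carried by mammals as tandem arrays of near-identical units, each with an 18S, a 5.8S and a 28S gene, and a reference assembly leaves most of these copies out. Active rRNA units are known to be open and depleted of nucleosomes, while silent units are packed in nucleosomes. Lars2 encodes the mitochondrial leucyl-tRNA synthetase, which charges tRNA with leucine for mitochondrial translation. Cmss1 is named as a homolog of the yeast protein Cms1, which is linked to the small ribosomal subunit. Filip1l is named for its likeness to filamin A-interacting protein 1, a partner of the actin-binding filamins. AY036118 is annotated as a long non-coding RNA.

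The whole libraries held 1693307 to 3577740 calls (1 call is 1 read over 1 cytosine), the median site had 3 reads, and no deposited site had fewer than 3. Nuclear sites outside the members averaged 3.50 to 3.80 reads. Their pooled level, methylated reads over all reads, was 31.7% in both day 1 treated libraries and 30.7% and 30.9% in day 0 treated ones, and 2.97% and 2.93% on day 1 and 4.66% and 5.01% on day 0 in untreated libraries. Intervals given for single libraries are 95% Wilson intervals and cover counting error only. They take calls as independent, although 1 read can cover several neighbouring cytosines, so they are too narrow even for that.

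Most of the reads at each locus fell in 1 short stretch (coordinates in mm10, per the labels). In AY036118 (chr17:39848112-39898385, minus strand) the deep positions ran from chr17:39847114 to 39848824, a stretch of 1711 bp that begins 998 bp beyond the transcript's 3′ end and stops 712 bp inside the gene. It was 3.27% of the locus by length and took 99.4% of the locus's calls over all libraries. The Lars2 stretch (gene at chr9:123366927-123462675, plus strand) ran from chr9:123461971 to 123462095, 125 bp that end 580 bp before the 3′ end of the gene, and it took 59.9% of the calls in 0.128% of the length. At Cmss1 (chr16:57301999-57606867, minus strand) and Filip1l (chr16:57353277-57572804, plus strand) a shared stretch of 155 bp, chr16:57391499 to 57391653, took 73.8% of the calls in 0.0505% of the length. The annotation used here has no exons, so exonic and intronic sequence could not be told apart.

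The description of the loci as rRNA-like rests on annotation at 1 of the 3. The pseudogene Rn18s-rs5 (chr17:39846354-39848202), related to 18S rRNA, overlaps 1089 bp of the AY036118 stretch and holds 86 of its 143 deep positions. Beyond the flank and a thinly read gap, deep positions went on as far as chr17:39843010, so that they spanned 5815 bp with 615 deep positions in all. No rRNA entry of the annotation used here overlaps the Lars2 or the Cmss1/Filip1l stretch, and the sequence of the 3 stretches was not analysed here. The profile of read depth shows both features, a broad plateau next to AY036118 and single narrow peaks at the other loci.

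**Figure D1:**
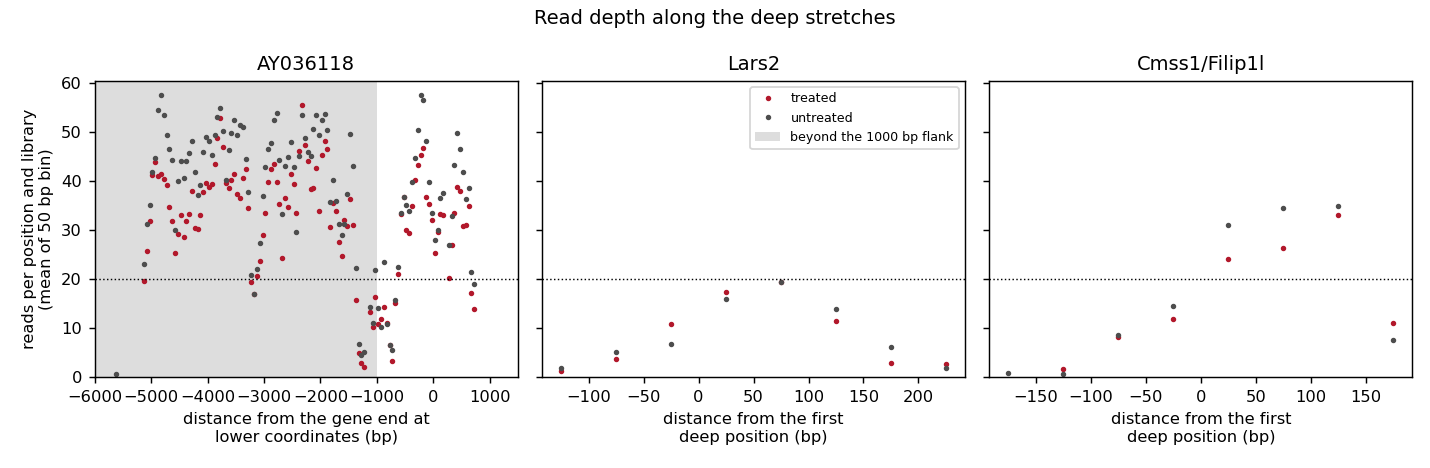
Reads per position and library (vertical axis, mean of the positions in each 50 bp bin, with a library in which a position is not listed counted as 0) against distance in bp, for the 4 treated (red) and 4 untreated (grey) libraries. The dotted line marks 20 reads, and grey shading marks sequence beyond the 1000 bp flank of AY036118, where the deep run goes on; the Lars2 and Cmss1/Filip1l peaks have their deep positions within 125 and 155 bp.

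The 3 stretches differed in how many positions were deep in every library. At AY036118, 99 of the 143 deep positions were deep in all 8 libraries. At Cmss1/Filip1l, 10 of 26 were. At Lars2, 0 of 14 were, and 8 of the 14 passed 20 reads in a single library. Most positions outside the stretches were thinly read. A single library read 63 of 67 such positions at AY036118, 269 of 290 at Lars2 and 406 of 432 at Cmss1/Filip1l. The most reads at any outside position were 7, 19 and 20. All 8 libraries read 1 outside position at Lars2 and 7 at Cmss1/Filip1l. In the 50 bp before the Cmss1/Filip1l stretch, positions averaged 11.9 reads in treated and 14.55 in untreated libraries. The outside sites thus include edges of the peaks.

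Read depth itself, which chose the members, is given as a description. AY036118 averaged 25.4 and 25.5 reads per site in day 1 treated libraries, 30.5 and 26.7 in day 0 treated, 31.7 and 32.9 in day 1 untreated and 36.3 and 34.2 in day 0 untreated. Lars2 averaged 9.20 and 6.48 in day 1 treated, 6.25 and 9.20 in day 0 treated, 5.68 and 6.99 in day 1 untreated and 6.97 and 8.07 in day 0 untreated. Cmss1/Filip1l averaged 8.83 and 9.40 in day 1 treated, 13.9 and 12.2 in day 0 treated, 10.5 and 11.2 in day 1 untreated and 14.4 and 16.9 in day 0 untreated. All 3 loci lay above the 3.50 to 3.80 of other nuclear sites in every library. Among 5655 gene loci with at least 20 calls in each library, AY036118 ranked 3, Filip1l 19, Cmss1 23 and Lars2 34 by mean reads per site, with a median locus at 3.11.

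Whole-locus calls at AY036118 and Cmss1/Filip1l did not scale with library size between the days. Those of Lars2 did so without the enzyme alone. Day 1 libraries held 1.35 times the calls of day 0 libraries with the enzyme and 1.97 times without it. AY036118 had 4721 and 4963 calls in day 1 treated libraries and 5148 and 4652 in day 0 treated ones, a ratio of 0.988. Without the enzyme it had 5390 and 5464 on day 1 and 5839 and 5601 on day 0, a ratio of 0.949. At Cmss1/Filip1l the ratio was 0.936 with the enzyme and 1.09 without it. At Lars2 it was 1.06 with the enzyme and 1.85 without it, the second being close to the 1.97 of the whole untreated libraries. These ratios mix the stretch with the sites outside it. Outside its stretch, Cmss1/Filip1l had 329 and 275 calls on day 1 and 227 and 247 on day 0 with the enzyme. Without the enzyme it had 379 and 366 there on day 1 and 230 and 169 on day 0. Untreated Lars2 had 238 and 312 such calls on day 1 and 102 and 129 on day 0. Treated Lars2 had 115 and 177 against 168 and 129. As a share of all calls of a library, AY036118 took between 0.151% and 0.331%.

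**Figure D2:**
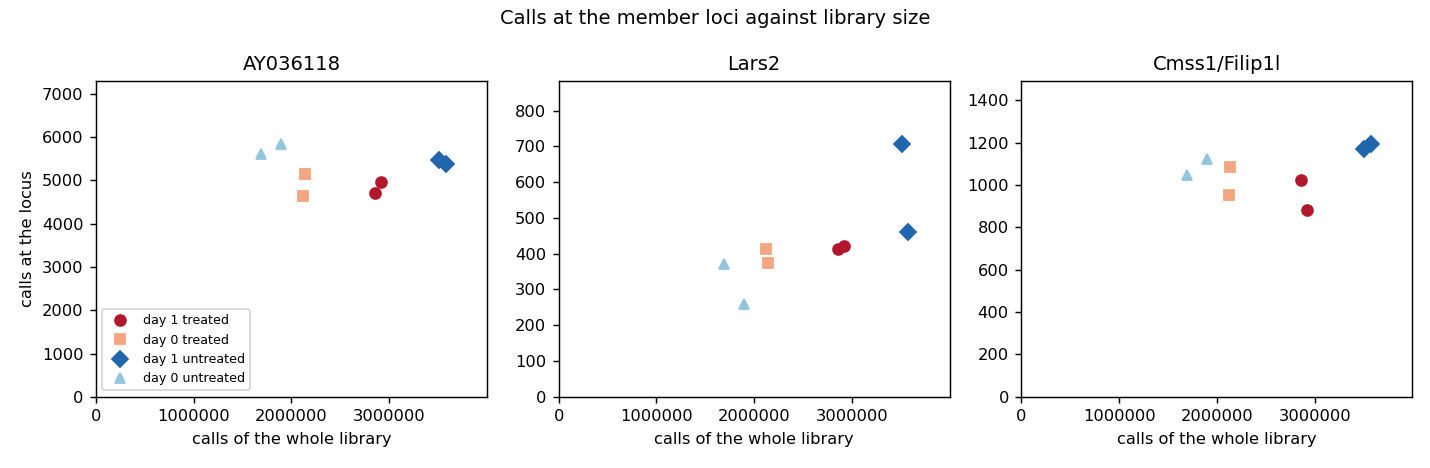
Calls at each locus (vertical axis, number of reads over cytosines) against all calls of the library (horizontal axis), 1 symbol per library and group. AY036118 stays between 4652 and 5839 calls while the libraries run between 1693307 and 3577740 calls; Lars2 spans 258 to 706.

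The enzyme marked the deep stretches heavily on both days. At the deep sites of AY036118 the pooled level was 67.3% (interval 65.8 to 68.8) and 67.6% (66.2 to 69.0) in day 1 treated libraries and 60.2% (58.7 to 61.6) and 60.5% (59.0 to 62.0) in day 0 treated libraries. Its untreated libraries stood at 1.60% and 1.05% on day 1 and 1.51% and 1.33% on day 0. Treated and untreated libraries were thus far apart, with 3986 to 5511 calls behind each value.

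Lars2 rested on fewer calls. Its deep sites were at 73.1% (133 of 182 calls) and 69.6% (80 of 115) in day 1 treated libraries. They were at 59.3% (67 of 113) in 1 day 0 treated library, while the other day 0 treated library had 0 deep sites. In untreated libraries the level was 4.76% (1 of 21 reads at 1 site) and 0.266% (1 of 376 calls) on day 1. On day 0 it was 0 of 72 and 0 of 70 calls. With every call taken as independent, these counts of 0 allow up to 4.17% and 4.29% (3 calls of the total). Each of these 2 libraries had 3 deep sites within 125 bp, with at most 25 and 24 reads at a site. Their calls share reads, so the true limits are higher. The treated and untreated libraries did not overlap at Lars2. Nuclear sites outside the members, pooled, did not overlap either, at 30.7% to 31.7% in treated and 2.93% to 5.01% in untreated libraries. The share of single loci without overlap was not counted, so it cannot be told whether the separation sets Lars2 apart.

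At the deep sites shared by Cmss1 and Filip1l the level was 62.6% and 69.6% in day 1 treated libraries and 54.3% and 62.3% in day 0 treated libraries. Untreated libraries gave 3.02% and 1.77% on day 1 and 0.976% and 1.57% on day 0. Calls per value ran between 372 and 858, and calls at neighbouring sites share reads. The 2 treated libraries of a day lay further apart here than at AY036118, with an SD of 4.99 points on day 1 and 5.67 points on day 0, against 0.222 and 0.266 points at AY036118.

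Treated minus untreated came to 62.5 points at AY036118, 64.0 at Lars2 (7 libraries) and 60.4 at Cmss1/Filip1l, averaged over the days. For each of the 3, an exact two-sided permutation test within days gave p = 0.0556 (also after Benjamini-Hochberg adjustment over 9 tests, in which the other sites and all sites of each locus gave the same p). That is the smallest p these libraries allow; within 1 day, 2 libraries against 2 cannot go below 0.333. In the fit over all 5655 loci, edgeR's quasi-likelihood test on methylated and unmethylated reads called all 4 genes higher in treated libraries on both days, beside 99.9% of all loci on day 1 and 98.8% on day 0. The call therefore does not set the members apart.

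The size of the enzyme effect can be read against all loci. On the log2 odds scale it was 7.30 ± 0.19 on day 1 and 6.66 ± 0.19 on day 0 at AY036118 (SE), against a median locus of 5.51 on day 1 and 4.38 on day 0. Lars2 had 8.11 ± 0.48 on day 1 and 7.30 ± 0.52 on day 0. Cmss1 had 5.73 ± 0.30 on day 1 and 6.51 ± 0.32 on day 0, and Filip1l, which shares most of its reads, 5.78 ± 0.30 and 6.58 ± 0.32. The highest adjusted p of the 4 genes in the main edgeR fit was 3.57e-43, for Lars2 on day 0. It depended on the setting: edgeR on loci with at least 40 calls in every library gave 6.79e-18 for Lars2 on day 0. The limma test on log2 odds gave an adjusted p of 2.61e-08 there, the highest of the 4 genes over all settings. By size AY036118 ranked 557 of 5655 on day 1, Lars2 234, Cmss1 2358 and Filip1l 2250; on day 0 the ranks were 569, 439, 607 and 587. These ranks depended on the method: limma on log2 odds of the same loci gave 4, 1, 817 and 740 on day 1 and 4, 2, 9 and 8 on day 0. By treated level alone the genes ranked 2 (AY036118), 12 (Filip1l), 15 (Cmss1) and 16 (Lars2), with 64.1%, 56.7%, 55.8% and 55.8% beside a median locus of 29.6%.

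The difference between the deep sites and the rest of their own locus depended on which other sites were counted. In treated libraries the deep sites of Cmss1/Filip1l were higher than its other sites in 4 of 4 libraries, by 17.2 ± 4.27 points (SD), and those of Lars2 in 3 of 3, by 13.6 ± 6.17 points. Exact two-sided sign-flip permutation tests gave p = 0.125 and p = 0.25, the smallest possible in each, or 0.333 and 0.5 adjusted over 8 tests. With sites of at least 5 reads only, the differences were 3.68 points at Cmss1/Filip1l and 5.35 at Lars2, and with positions deep in all 8 libraries 8.47 at Cmss1/Filip1l. At AY036118 the deep sites were higher in 2 of 4 libraries and lower in the other 2, with a mean of -1.37 ± 2.88 points (p = 0.5, exact permutation). Untreated libraries showed differences of -0.494, 0.557 and -0.172 points at AY036118, Lars2 and Cmss1/Filip1l, all smaller than their SD over libraries.

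The other sites are themselves a mixture. Inside the AY036118 stretch, sites with 20 reads or fewer had 71.1% and 73.2% in day 1 treated and 65.4% and 60.2% in day 0 treated libraries, as high as the deep sites beside them. Outside the stretch they had 44.4% and 11.3% on day 1 and 50% and 16.7% on day 0, from only 6 to 80 calls per library. Counted against those outside sites alone, a comparison added after the values were seen, the AY036118 deep sites were 33.3 points higher in treated libraries, with single libraries between 10.2 and 56.4 (4 of 4, p = 0.125, exact permutation, smallest possible). Lars2 averaged 18.2 points higher, from 25.3 and 28.9 points on day 1 and 0.377 in the day 0 library. Cmss1/Filip1l was 18.2 to 24.0 points higher in 4 of 4 libraries, 21.6 on average. Against the shallower sites inside the stretch, the differences were -3.59, 7.12 and 2.39 points. The lower treated levels at AY036118 were thus those outside the stretch. Sites of the 3 loci just over the threshold, at 21 to 25 reads, were at 65.9% in treated libraries and those just under it, at 16 to 20 reads, at 66.3%.

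**Figure D3:**
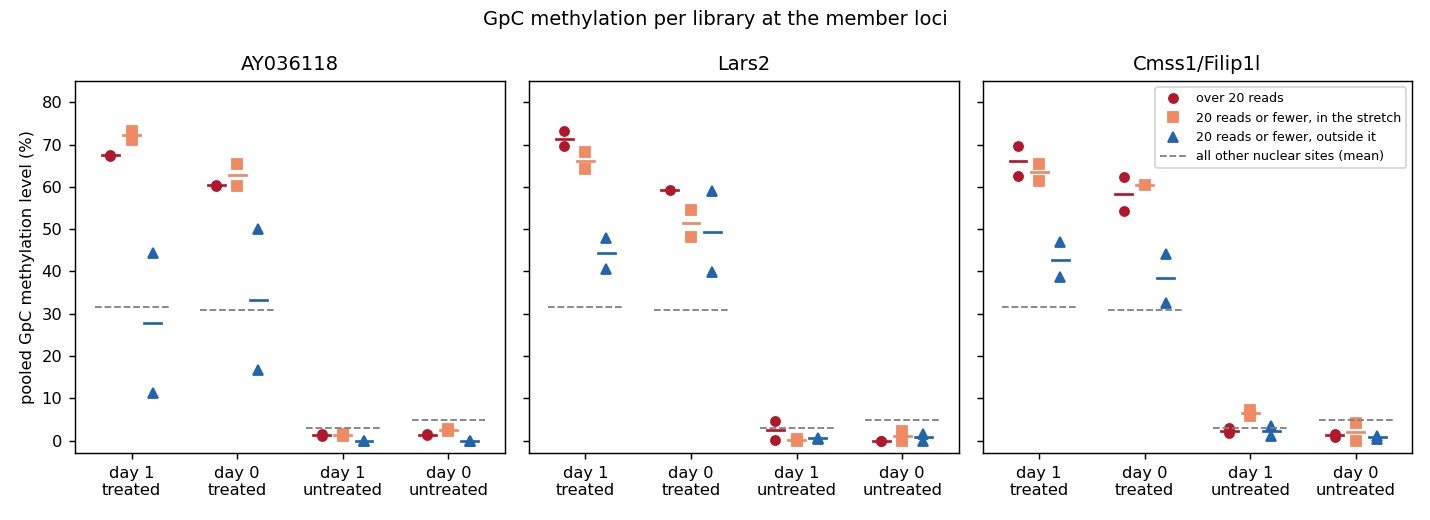
Pooled GpC methylation level (%) of each library at the 3 loci, for sites over 20 reads (circles), sites of 20 reads or fewer inside the stretch (squares) and outside it (triangles); short bars are means of the libraries with such sites and dashed lines the mean level of all other nuclear sites. Treated libraries lie between 48.3% and 73.2% inside the stretches, against 0 to 7.35% in untreated libraries, and the treated triangles lie lower on average.

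The 3 loci were also set against the other deep sites of the nuclear genome. Of the pooled member calls at deep sites, AY036118 gave 3987 of 4794 and 4177 of 4664 in day 1 treated libraries. In day 0 treated libraries it gave 4601 of 5459 and 3986 of 4691. Without the enzyme it gave 4879 of 5662 and 5132 of 6243 on day 1. On day 0 without the enzyme it gave 5511 of 6403 and 5112 of 6009. The pooled member level is therefore mainly that of AY036118. Pooled over the members, deep sites had 66.9% and 67.8% in day 1 treated and 59.2% and 60.7% in day 0 treated libraries, and other deep sites 46.7% and 47.0% on day 1 and 44.2% and 45.5% on day 0. The members were higher in 4 of 4 libraries, by 17.9 ± 3.13 points (SD; p = 0.125, exact sign-flip permutation, smallest possible, 0.333 adjusted). In untreated libraries the members were lower in 4 of 4, by 20.3 points, with 1.80% and 1.09% on day 1 and 1.42% and 1.35% on day 0 against 20.5% to 23.1% at other deep sites (exact permutation p = 0.125, 0.333 adjusted). That second difference depended on the deepest sites: against other sites over 20 and up to 100 reads, it shrank to -2.56 points, while the treated difference was 24.8 points. The deep run past the 3′ end of AY036118, within 5000 bp beyond the flank, was at 72.0% and 71.2% in day 1 treated, 62.2% and 63.8% in day 0 treated and 1.11% to 1.76% in untreated libraries, and those sites count among the other deep sites.

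Levels at the deep sites were higher on day 1 than on day 0 with the enzyme; this contrast was known when the members were chosen and is given without a test. The means were 67.5% on day 1 and 60.3% on day 0 at AY036118, a difference of 7.13 points. Each day 1 library was above each day 0 library, which also held outside the members. Other nuclear deep sites had 46.7% and 47.0% on day 1 against 44.2% and 45.5% on day 0. Nuclear sites of 20 reads or fewer had 29.98% and 29.97% against 28.63% and 28.55%. Lars2 differed by 12.0 points, with 71.3% on day 1 and 59.3% in the 1 day 0 library with deep sites. Cmss1/Filip1l differed by 7.77 points, 66.1% on day 1 and 58.3% on day 0, and its days barely separated, since the lower day 1 library had 62.6% and the higher day 0 library 62.3%. Its difference was 3.76 points without day 0 treated replicate 1, 4.24 without day 1 treated replicate 2 and 11.8 without day 0 treated replicate 2. Without the enzyme the day differences were -0.0927 points at AY036118, 2.51 at Lars2 (0.266 without the day 1 library whose value rests on 1 site) and 1.12 at Cmss1/Filip1l. Leaving out 1 library moved these over -0.366 to 0.181, 0.266 to 4.76 and 0.495 to 1.74 points. Other nuclear deep sites differed between the days by 1.99 points with the enzyme, those of up to 100 reads by 2.35 points, and the deep run beyond the AY036118 flank by 8.62 points. Whether the enzyme acted equally on both days was not tested.

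Position by position, the day difference was spread along the stretches. Of 148 positions of AY036118 read in all 8 libraries, 121 had a higher level on day 1 than on day 0 in treated libraries, 26 a lower one and 1 was equal. At Lars2 all 14 such positions of the stretch were higher on day 1, and at Cmss1/Filip1l 21 of 26 were higher and 5 lower. Neighbouring positions share reads, so these counts are not independent. The share of other nuclear positions that were higher on day 1 was not counted, so these counts cannot be read as a trait of the members. The plot of single positions shows the day 1 points above the day 0 points over most of each stretch.

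**Figure D4:**
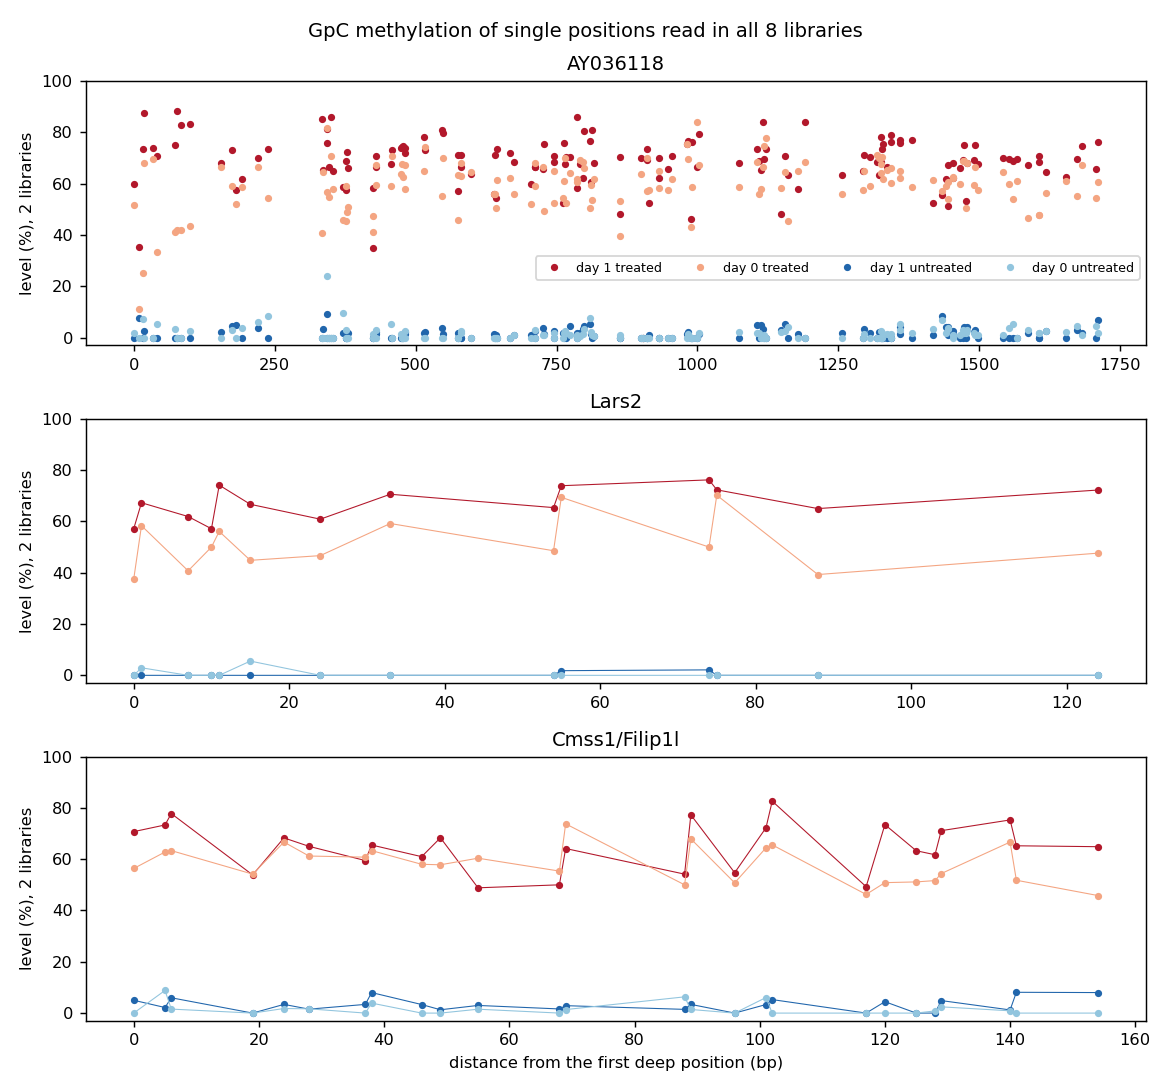
Level (%) of each position read in all 8 libraries, pooled over the 2 libraries of a group, against its distance in bp from the first deep position of the stretch. Day 1 treated points lie above day 0 treated points at 121 of 148 positions (AY036118), 14 of 14 (Lars2) and 21 of 26 (Cmss1/Filip1l). Untreated points lie near 0. The share at other nuclear positions was not counted.

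Within AY036118 the level varied more between positions than counting error gives. Over treated libraries together, the median position was at 65.6%, the lower and upper quartiles at 60.5% and 68.6%, and the SD over positions was 9.22 points, where read counts alone would give 4.80. At Lars2 the SD was 8.28 points against 6.14 from counting, and at Cmss1/Filip1l 7.02 against 4.75. The excess at Lars2 was not seen on both days. Its SD was 6.30 against 8.48 from counting on day 1 and 10.2 against 8.88 on day 0. Positions high on day 1 tended to be high on day 0 (r = 0.50, 0.62 and 0.49 across 148, 14 and 26 positions that share libraries and reads). The 148 include chr17:39848017, which was at 0% on both days in treated libraries. That position raises both the SD and r of AY036118, and neither was recomputed without it. Replicate libraries agreed within counting noise at AY036118, with a mean chi-square per position of 0.973 to 1.09, where 1 is the value of pure counting error.

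Every bin of 200 bp along the AY036118 stretch was highly methylated with the enzyme. Day 1 treated levels ran between 63.1% and 76.5% and day 0 treated levels between 53.2% and 70.5%. The part outside the gene but inside Rn18s-rs5 (998 bp) had 68.3% ± 1.07 on day 1 and 60.4% ± 0.0217 on day 0 in treated libraries, and the part inside the gene past Rn18s-rs5 (622 bp) had 67.6% ± 0.581 and 60.7% ± 0.594 (SD, n = 2 each). On both days these parts differed by less than the SD of 1 of them.

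A pair of single positions of AY036118, named after their values were seen, went against the rest. At chr17:39848017, inside the deep run, 0 of 44, 42, 31 and 34 reads were methylated in the 4 treated libraries and 0 of 46, 49, 38 and 38 in the untreated ones. A count of 0 over the 151 treated reads allows a level of up to 1.99% (3 reads of the total), while the next lowest position, chr17:39847124, had 26.9%. At chr17:39847457 treated libraries had 81.7% and untreated ones 14.8% (8 of 54 reads), which made it the single position above 10% without the enzyme among the 148 read in all 8 libraries.

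Both cytosines of a GC step can be read, 1 on each strand, and 56 such pairs lay in the AY036118 stretch, 5 at Lars2 and 7 at Cmss1/Filip1l. In treated libraries the plus-strand cytosines of AY036118 were at 67.8% and their minus-strand partners at 62.7%, with plus higher in 4 of 4 libraries, by 1.80 to 11.3 points. Lars2 had 68.1% on plus and 55.2% on minus, higher on plus in 4 of 4, and Cmss1/Filip1l had 66.8% and 61.4%, higher in 2 of 4. Calls were split 0.897 plus to minus at AY036118 and 0.839 at Cmss1/Filip1l. At Lars2 the split was 1.77 over all libraries and ran between 0.936 and 7.43 in single ones. The highest was in a day 0 untreated library with 104 plus and 14 minus calls.

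Away from the stretches, the only member promoter with any call was that of Filip1l. RefSeq (GRCm38.p6) places it at chr16:57548992-57549291 on the plus strand, inside the annotated gene, and it is shown because 10 of its GpC cytosines were read; the capitals mark them.

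Filip1l promoter: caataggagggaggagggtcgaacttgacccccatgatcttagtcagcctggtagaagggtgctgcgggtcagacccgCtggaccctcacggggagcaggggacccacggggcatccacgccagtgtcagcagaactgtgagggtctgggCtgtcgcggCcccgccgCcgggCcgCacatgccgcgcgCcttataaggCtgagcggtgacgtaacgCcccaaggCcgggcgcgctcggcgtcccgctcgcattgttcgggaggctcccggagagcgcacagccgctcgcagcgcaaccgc

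In 1 day 1 treated library 19 of 24 calls at 8 of these cytosines were methylated. The 8 lay between chr16:57549151 and 57549216, so a single read can cover several of them. In the other day 1 treated library 1 of 3 reads at 1 cytosine was methylated, and in 1 day 0 treated library 2 of 3 reads at 1 cytosine. The second day 0 treated library and all 4 untreated libraries had no call there. At these read numbers no level can be compared between the groups, and the promoter windows of the other members held 0 sites.

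The related genes did not share the depth. All 16 other mitochondrial aminoacyl-tRNA synthetase genes, the family of Lars2, had calls, with 3 to 3.14 reads per site. All 30 genes of small-subunit ribosome assembly, the process tied to Cmss1, had 3 to 3.40. The median of all loci tested was 3.11, so both lists sat at the background. Of 19 rRNA genes and neighbours listed, 3 were in the annotation, and of these Rn18s-rs5 alone had calls within 1000 bp, 100476 in all at 34.6 reads per site.

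Other gene loci did resemble the members across the 8 libraries. By reads per site (Euclidean distance on the log2 scale, 5651 candidate loci), the nearest to AY036118 were Gm36876, Cldn34d and Cdk8, to Lars2 Atf2, Gm52771 and LOC100504180, to Cmss1 Taco1os, Gm51464 and Smo, and to Filip1l Taco1os, Smo and Gm525. By level (1264 candidates with at least 100 calls per library), Gm36876, Gm51464 and Gm36264 were nearest to AY036118. Cdk8, Zc3h7a and Gm36264 were nearest to Lars2 by that measure, and Zc3h7a, Gm36264 and Gm46595 to both Cmss1 and Filip1l. Gm36876 was nearest to AY036118 by both measures, with 21.0 to 30.1 reads per site, 57.8% to 68.9% in treated and 1.32% to 3.02% in untreated libraries. Cldn34d was as deep, at 19.8 to 35.2 reads per site, yet its treated level was 20.5% to 25.1%, so a deep locus was not always a highly methylated one.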

How the data were processed

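The deposited files of 8 NOMe-seq libraries hold 1 line per cytosine, on build mm10 per the submitters' processing notes. The authors gave the methylated fraction (2 decimals) and the read count of each cytosine in deposited columns without a header. Fraction times count was whole within a rounding of 0.005 at 100% of sites, and methylated reads are that product. No aligner, caller or handling of duplicates is stated in the labels. All 62188 positions inside RefSeq promoter windows were the cytosine of GpC followed by A, C or T. Members, gene lists and tests were chosen with earlier results of these data known.

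Levels pool methylated reads over reads. Group tests were exact two-sided permutations. Gene loci with at least 20 calls in every library were fitted with edgeR 4.0.16 (R 4.3.3), with a mean for each group. The threshold was 0.05 with Benjamini-Hochberg adjustment over 5655 loci, and limma 3.58.1 was an alternative. A simulation checked the fit only in part. It set untreated libraries at treated levels and changed some loci in day 1 treated libraries. The real difference between treated and untreated libraries was not simulated. Python 3.11.15, scipy 1.17.1 and pandas 2.3.3 did the rest. Alternatives varied the depth threshold, flank, site weighting, coverage minimum, call minimum, replicate block and libraries. Named genes are the members, 3 related lists (1 further list is not reported here), and for each member the 3 nearest loci by reads per site and by level; Rn18s-rs5 was singled out by its overlap. Lars2 had 0 to 14 deep sites per library, so its values are coarse.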

Additional observations from a re-analysis of the deposited data

How the results depend on the processing

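Of 468 alternative values, 434 kept their sign and call without moving, 14 moved and 20 changed sign, 4 of these being day differences without the enzyme that lay within 1 SD. The 62.5, 64.0 and 60.4 point enzyme effects kept their direction under every setting that gave a value, and without 1 library ranged over 62.4 to 62.7, 62.9 to 65.2 and 58.4 to 62.4 points at AY036118, Lars2 and Cmss1/Filip1l. No locus had a value at over 100 reads, Lars2 had none at over 50 reads or at positions deep in all 8 libraries, and Cmss1/Filip1l had no enzyme effect or day difference at over 50 reads. Calls of loci fell with the loci tested: 3280, 3277 and 3280 (day 1, day 0, average) at 40 calls or more, against 5651, 5588 and 5655, and 10133 with the 4 day 1 libraries alone. The replicate numbers do not pair the libraries (correlations of replicate differences between -0.024 and 0.019 over 5655 loci); with the replicate block 5649, 5568 and 5655 loci were called, and all 4 genes remained called.

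Deep minus other sites changed sign in treated libraries at AY036118 (main -1.37): 9.42 at over 10 reads, 4.72 with equal weight per site, 11.8 without the flank, 0.531 with a 5000 bp flank and 33.3 against sites outside the stretch. Cmss1/Filip1l in treated libraries gave -4.49 at over 50 reads, in the 1 library with such sites, and its 17.2 points became 26.5 at over 10 reads, 25.9 with equal weight, 8.47 at positions deep in all 8 and 3.68 at sites of at least 5 reads; Lars2's 13.6 became 5.35 there. In untreated libraries AY036118 gave 0.602 at over 50 reads, 0.139 at positions deep in all 8, 1.49 without the flank and 1.37 against sites outside the stretch. Untreated Lars2 gave -0.400 at over 10 reads and ranged over -0.693 to 1.10 without 1 library. Untreated Cmss1/Filip1l gave 0.781 at over 10 reads, 0.373 with equal weight, 0.298 against outside sites and ranged over -0.449 to 0.00160 without 1 library. The cause was not tested.

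Day differences moved with the threshold. In treated libraries AY036118 gave 7.56 at over 10 reads, 8.46 at over 50, 7.67 with equal weight and 8.30 with a 5000 bp flank; Lars2 gave 14.6 at over 10; the members together 9.04 at over 50 and 8.32 with a 5000 bp flank. Untreated Lars2 gave 0.211 at over 10 reads and 0.266 to 4.76 without 1 library. Treated Cmss1/Filip1l ranged over 3.76 to 11.8 without 1 library. Depth limits Lars2 most.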

Other observations

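Within the AY036118 stretch, 7 positions were read in treated libraries and in no untreated one, and 5 of them in all 4 treated libraries. In untreated libraries alone, 0 positions were read. The 7 lay in 1 run between chr17:39847201 and 39847365, so they can share reads. Those with a listed partner on the other strand were plus-strand cytosines. Their minus-strand partners were read without the enzyme, such as chr17:39847214 with 94 untreated reads beside 0 at chr17:39847215. The 5 positions had 31 of 38 and 72 of 89 calls methylated in the day 1 treated libraries (81.6% and 80.9%). They had 66 of 66 and 48 of 53 in the day 0 treated libraries (100% and 90.6%). Together the 7 stood at 88.2% in treated libraries with 10.8 reads per site, against 63.8% with 31.0 reads per site at the 148 positions read in all 8 libraries. No such position lay in the Lars2 or the Cmss1/Filip1l stretch. The set was noticed in the data, and its cause was not tested.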
